A study of Homo sapiens with 36 samples.

Results

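The step from 1 to 3 nM MEK inhibitor was examined in LoVo, an established human colorectal cancer cell line. Its members were the 3 libraries of cells given 3 nM and the 3 libraries of cells given 1 nM, 6 of the 36 libraries in the series, and all 20802 genes of the amplicon panel apart from the spike-in controls. Of those genes, 12102 had enough counts to be tested. Both groups were grown in F-12K medium with 10% fetal bovine serum, were treated for 24 hours, and differ in the labels only in dose. The whole series covers 10 doses between 0.03 and 1000 nM and 6 libraries of control cells given DMSO. The compound is known in the labels as compound 33 of a medicinal chemistry report, and it is called the MEK inhibitor here. All values come from 1 cell line, so they describe LoVo cells only.

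MEK is the kinase, encoded by MAP2K1 and MAP2K2, that phosphorylates ERK, and ERK in turn switches on growth genes and also the inhibitors that restrain the pathway. In colorectal cancer cells this pathway is often active without a growth signal from outside. A separate programme, driven by the transcription factor ATF4, answers to a lack of amino acids: it raises amino acid transporters, enzymes that make serine and asparagine, the synthetases that charge tRNA, and the stress genes CHAC1, DDIT4, SESN2 and TRIB3. ATF4 is also a known effector of growth signalling through mTORC1 in proliferating cells.

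The 3 nM libraries held 4751839, 4520651 and 4681988 counts, against 2989396, 4678461 and 4222407 counts in the 1 nM libraries. Replicate 1 at 1 nM stood apart: the chi-square of its counts against the other 1 nM libraries was 10.7 and 11.1 per degree of freedom, whereas the other 4 pairs within the 2 doses lay between 3.08 and 3.30. No pair was close enough to be the same library. Results that change without this library are named beside their values. Colorectal epithelial markers summed to 18346 to 21928 counts at 3 nM and 13257 to 18471 counts at 1 nM, with all 12 markers detected and KRT8, an epithelial keratin, the most abundant. Fibroblast markers summed to 50 to 61 counts at 3 nM and 28 to 45 counts at 1 nM, and COL1A2, DCN, FAP and POSTN were at 0. Leukocyte markers summed to 99 to 144 counts at 3 nM and 27 to 92 counts at 1 nM, almost all from LYZ, while PTPRC, CD3E, CD2 and MS4A1 were at 0. Endothelial markers reached at most 5 counts at 3 nM and 1 count at 1 nM. The protocol speaks of biological replicates but not of how the cultures were kept apart. Some of the spread on which the p-values rest may thus be technical. In the main fit, that spread was estimated from all 36 libraries in 12 groups, not from the 1 and 3 nM libraries alone. The labels name the sequencing chip for DMSO libraries only, so a difference in chip between the doses was not tested.

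Cells given 3 nM had lower transcripts of the ATF4 amino acid programme, serine synthesis, tRNA charging and histones than cells given 1 nM. Some ERK-driven genes, HBEGF, EGR1, MYC and DUSP6 among them, were lower as well. Genes that rose were fewer with the filter on low counts (207 against 347 lower) but not without it (405 against 373 lower), and included the chaperones HSPA1B and DNAJB1, STAT2 and INSIG1. With edgeR's quasi-likelihood test and Benjamini-Hochberg adjustment over all tested genes, 554 genes were called at an adjusted p below 0.05, which is 4.58% of the genes tested. Of these, 207 (1.71%) were higher and 347 (2.87%) were lower at 3 nM. The counts of called members in the gene lists below stand against these shares. The change was at least 1 on the log2 scale for 24 of the higher and 25 of the lower genes. The median log2 fold change over all tested genes was -0.0048. Every 3 nM library lay beyond every 1 nM library for 199 of the 207 higher and 331 of the 347 lower genes, against 10.6% (3 nM above) and 11.3% (3 nM below) of all tested genes. The calls were made from the same 6 libraries, so this lack of overlap is no separate support for them. The number of calls depended on single libraries: it was 279 without 1 nM replicate 1, 309 without 3 nM replicate 1, 266 without 3 nM replicate 2 and 358 without 3 nM replicate 3. It was 153 when the model was fitted to the 6 libraries alone. For 10 nM against 0.3 nM, a fit to the compared libraries alone raised the calls from 3118 to 4099. The cause of either change was not tested.

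**Figure D1:**
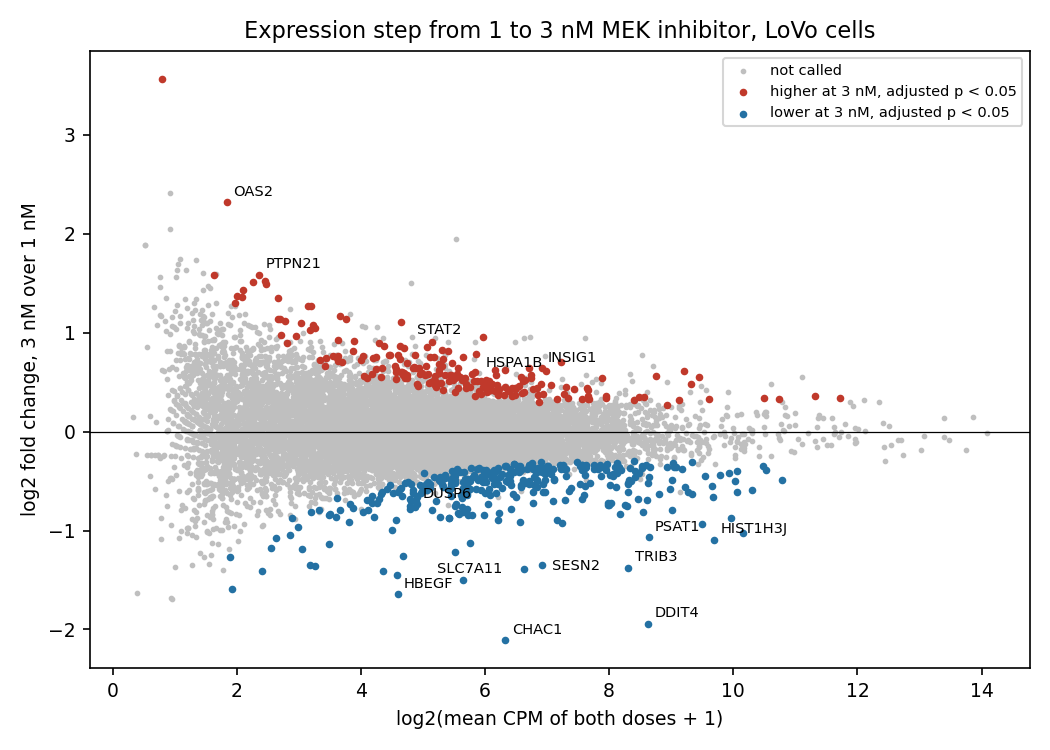
Log2 fold change at 3 nM over 1 nM (vertical axis) against mean expression, log2 of CPM + 1 (horizontal axis), for 12102 tested genes. The 207 higher (red) and 347 lower (blue) called genes are coloured; CHAC1 and DDIT4 lie lowest, at -2.10 and -1.94.

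The same genes were followed in libraries that the step did not use, 10 nM against 0.3 nM, a wider interval that spans it. There, 3118 genes (25.8% of those tested) were called, 1600 higher (13.2%) and 1518 lower (12.5%). Of the 347 genes lower at the step, 274 were also called lower at 10 nM than at 0.3 nM, which is 79.0% of the 347 and 18.1% of the 1518. Their median log2 fold change there was -0.63, 330 had the same sign, and 1 was called in the opposite direction. Of the 207 genes higher at the step, 110 were called higher in the wider interval, which is 53.1% of the 207 and 6.88% of the 1600. Their median there was 0.42, 178 had the same sign, and 1 was called in the opposite direction.

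Genes of the ATF4 amino acid response fell together. Of 19 tested members, 13 were called lower and 0 higher at 3 nM, and the median log2 fold change was -0.73, against -0.0048 over all tested genes. The same 13 genes were called lower under all 14 alternative analyses, including those that left out each of the 6 libraries in turn. CHAC1, an enzyme that breaks down glutathione, had 30.2, 27.3 and 32.4 CPM (CPM, counts scaled to the TMM library size) at 3 nM, against 128, 123 and 136 CPM at 1 nM. The 1 nM libraries were all about as high as the DMSO libraries, which ran from 120.5 to 147 CPM with a median of 125 CPM, and the 3 nM libraries were all far below them. Its log2 fold change at 3 nM over 1 nM was -2.10 with a standard error of 0.12 (edgeR's quasi-likelihood test, adjusted p = 2.19e-18).

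DDIT4, an inhibitor of mTORC1 also called REDD1, had 168, 154 and 166 CPM at 3 nM, against 664, 582 and 629.5 CPM at 1 nM. All 3 nM libraries were below all 1 nM libraries, with a log2 fold change of -1.94 ± 0.12 (SE). SESN2, which signals low leucine to mTORC1, had 63.9, 65.8 and 72.2 CPM at 3 nM, against 192, 147 and 178 CPM at 1 nM. Its libraries did not overlap either, and the log2 fold change was -1.35 ± 0.11. TRIB3, a pseudokinase that dampens ATF4 and AKT signalling, had 166, 176 and 186 CPM at 3 nM, against 459.9, 386 and 525 CPM at 1 nM. STC2, a secreted glycoprotein of stressed cells, had 27.4, 27.9 and 21.1 CPM at 3 nM, against 86.9, 63.8 and 68 CPM at 1 nM. Both were lower in every 3 nM library, with log2 fold changes of -1.38 ± 0.11 for TRIB3 and -1.50 ± 0.13 for STC2. The adjusted p from edgeR's quasi-likelihood test was 1.10e-17 for DDIT4, 1.02e-13 for SESN2, 2.57e-13 for TRIB3 and 7.01e-13 for STC2.

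Amino acid transporters made up most of the remaining called members. SLC7A11, the cystine importer that feeds glutathione synthesis, had 50.9, 53.5 and 59.2 CPM at 3 nM, against 135, 124 and 168 CPM at 1 nM, and the groups did not overlap. Its log2 fold change was -1.39 ± 0.11 (edgeR's quasi-likelihood test, adjusted p = 1.02e-13). The glutamine transporter SLC1A5 had 212, 197 and 214 CPM at 3 nM, against 433, 339 and 339 CPM at 1 nM, and a log2 fold change of -0.83. SLC38A2, a transporter of small neutral amino acids, changed by -0.74 and SLC1A4, a transporter of alanine, serine and cysteine, by -0.66 on the log2 scale. SLC7A5 and SLC3A2, the light and heavy chains of the leucine transporter, changed by -0.55 and -0.52. ASNS, asparagine synthetase, had 86.7, 82.9 and 75.9 CPM at 3 nM, against 135, 119.8 and 151 CPM at 1 nM, a log2 fold change of -0.73. In each of these genes every 3 nM library was below every 1 nM library.

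The log2 fold change of the ATF4 transcript itself was the smallest of the 13. It had 655, 613 and 617 CPM at 3 nM, against 861, 866 and 842 CPM at 1 nM, a log2 fold change of -0.45 ± 0.095 (edgeR's quasi-likelihood test, adjusted p = 0.00213). All 3 nM libraries were lower. ATF4 is known to be set largely by translation of its mRNA, which was not measured. Members that did not pass the test were ATF5 (0.028), CEBPG (-0.35), CEBPB (-0.13), NUPR1 (-0.46), SLC6A9 (-1.69) and DDIT3 (1.88, log2 fold changes), of which CEBPB, SLC6A9 and DDIT3 were below 4 CPM in all 6 libraries. DDIT3 encodes CHOP, a death-promoting factor of the same stress response.

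**Figure D2:**
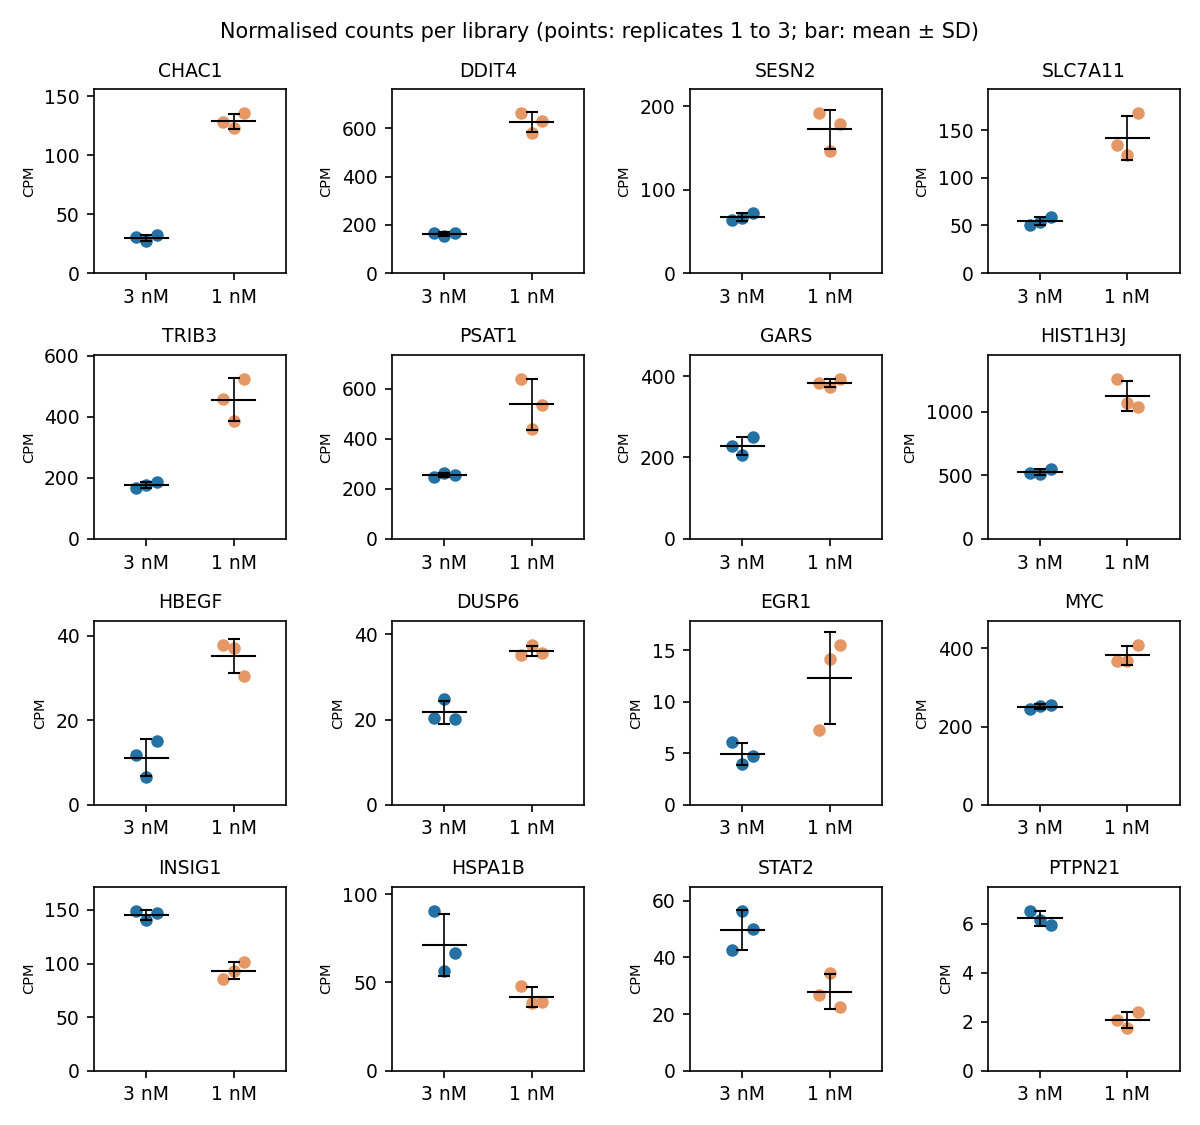
Normalised counts (CPM) of 16 genes in each library, 3 nM (blue, left) and 1 nM (orange, right) in each panel, 3 libraries per dose; lines and bars are the mean and SD. CHAC1, DDIT4 and SESN2 do not overlap between doses, whereas INSIG1, HSPA1B, STAT2 and PTPN21 are higher in every 3 nM library.

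The 12 largest falls among called genes that averaged 5 CPM or more at 1 nM without overlap held genes outside the ATF4 list too. Among these were HBEGF, EGR1, CXCR4, LOC400655, TSC22D3 and ULBP1. TSC22D3, a glucocorticoid-induced leucine zipper protein, had 11.2, 12.1 and 8.74 CPM at 3 nM, against 27.9, 23.9 and 33.2 CPM at 1 nM, a log2 fold change of -1.40 ± 0.17. ULBP1, a ligand that marks stressed cells for natural killer cells, had 13.1, 8.8 and 14.9 CPM at 3 nM, against 31, 30.8 and 38.4 CPM at 1 nM, a log2 fold change of -1.45 ± 0.18. For both, all 3 nM libraries were below all 1 nM libraries. In the glycolysis and hypoxia list, VEGFA, the angiogenic growth factor, had 13.3, 16.3 and 13.6 CPM at 3 nM, against 40.7, 29.5 and 34.1 CPM at 1 nM, and did not overlap between doses. Its log2 fold change was -1.25 ± 0.16 (edgeR's quasi-likelihood test, adjusted p = 1.14e-07).

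Enzymes of serine synthesis and folate one-carbon metabolism fell, 6 of 9 tested members being called lower and 0 higher, with a median log2 fold change of -0.53. PSAT1, the transaminase of serine synthesis, had 249, 264 and 257 CPM at 3 nM, against 640.2, 439 and 535 CPM at 1 nM. MTHFD2, a mitochondrial folate enzyme, had 502, 443 and 545 CPM at 3 nM, against 971, 871 and 997 CPM at 1 nM. All 3 nM libraries were below all 1 nM libraries for both genes, with log2 fold changes of -1.06 ± 0.10 for PSAT1 and -0.93 ± 0.081 for MTHFD2. PSPH, the phosphatase that ends serine synthesis, had 46.2, 47.7 and 40.9 CPM at 3 nM, against 57.9, 77.5 and 105 CPM at 1 nM. PHGDH, the first enzyme of that pathway, had 475, 476 and 493 CPM at 3 nM, against 718, 714 and 691 CPM at 1 nM. These 2 genes also did not overlap between doses and changed by -0.85 and -0.56 on the log2 scale. The adjusted p from edgeR's quasi-likelihood test was 2.08e-11 for PSAT1, 3.47e-12 for MTHFD2, 1.54e-05 for PSPH and 1.46e-04 for PHGDH. SHMT2 and MTHFD1 were called with log2 fold changes of -0.50 and -0.38, whereas ALDH1L2 (-0.53), SHMT1 (-0.16) and MTHFD1L (0.014) did not pass. Of the 6 called genes, 5 were called under all 14 alternatives. MTHFD1 was the exception, and leaving out any library but 3 nM replicate 1 ended its call.

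All 12 aminoacyl-tRNA synthetases had a log2 fold change below 0, with a median of -0.50, and 9 were called lower and 0 higher. GARS, which charges glycine tRNA, had 229, 206 and 250.4 CPM at 3 nM, against 384, 372 and 393 CPM at 1 nM. AARS, which charges alanine tRNA, had 381, 386 and 361 CPM at 3 nM, against 743, 591 and 628 CPM at 1 nM. Neither gene overlapped between doses. The log2 fold changes were -0.75 ± 0.10 for GARS, -0.80 ± 0.12 for AARS, -0.63 ± 0.10 for MARS and -0.58 ± 0.10 for IARS, the methionine and isoleucine enzymes. By edgeR's quasi-likelihood test the adjusted p was 3.42e-07 for GARS, 2.07e-05 for AARS, 5.38e-05 for MARS and 1.89e-04 for IARS. These 4 genes were called under all 14 alternatives. TARS, WARS and YARS lost their call only in the fit to the 6 libraries alone, whereas LARS also lost it without 1 nM replicate 1 or 3 nM replicate 2, and NARS without any library but 1 nM replicate 3. The count for the list was 4 when the 6 libraries were fitted alone and between 7 and 9 under the others. In the libraries that the step did not use, 12 of 12 synthetases, 17 of 19 ATF4 list members and 7 of 9 serine and one-carbon members were lower at 10 nM than at 0.3 nM.

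For the stress genes of the ATF4 list, most of the fall over the whole dose range lay within this step. The change between 1 and 3 nM was compared with the neighbouring steps in the same model, which shares the 1 nM libraries with the step below and the 3 nM libraries with the step above. At 1 nM against 0.3 nM 308 genes (2.55%) were called, and at 10 nM against 3 nM 203 genes (1.68%), 113 of them higher (0.934%) and 90 lower (0.744%). In the test of the difference 27 genes (0.223%) differed from the step from 0.3 to 1 nM, 10 in the positive direction (0.0826%) and 17 in the negative one (0.14%), and 32 genes (0.264%) differed from the step from 3 to 10 nM, 13 positive (0.107%) and 19 negative (0.157%). The balance of directions turned under some alternatives. Against the step below there were 210 positive and 70 negative genes without a filter on low counts, 23 and 10 with only the compared libraries, and 92 and 46 without 1 nM replicate 2. Against the step above there were 235 positive and 69 negative genes without a filter and 61 and 14 with only the compared libraries. The ATF4 list held 6 of the 17 and 6 of the 19 negative genes. Both counts depended on single libraries: the count of 27 was 15 without 0.3 nM replicate 1, 4 without 1 nM replicate 1, 138 without 1 nM replicate 2 and 60 without 1 nM replicate 3. The count of 32 was 50 without 1 nM replicate 2, 15 without 3 nM replicate 1, 11 without 3 nM replicate 2, 17 without 3 nM replicate 3 and 15 without 10 nM replicate 3.

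CHAC1 changed by 0.02 ± 0.11 in the step from 0.3 to 1 nM, by -2.10 ± 0.12 in the step from 1 to 3 nM and by 0.079 ± 0.14 in the step from 3 to 10 nM (log2 fold change ± SE). DDIT4 changed by -0.12 ± 0.11, -1.94 ± 0.12 and 0.091 ± 0.12 in the same 3 steps. SESN2 changed by -0.19 ± 0.10, -1.35 ± 0.11 and 0.18 ± 0.11. In these 3 genes nearly all of the fall lay between 1 and 3 nM, and both differences from the neighbouring steps were called under all 16 alternatives. The adjusted p of the difference from the lower step was 8.72e-11 for CHAC1, 5.23e-09 for DDIT4 and 7.72e-05 for SESN2, and of the difference from the upper step 5.49e-09, 5.49e-09 and 5.54e-07, by edgeR's quasi-likelihood test.

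**Figure D3:**
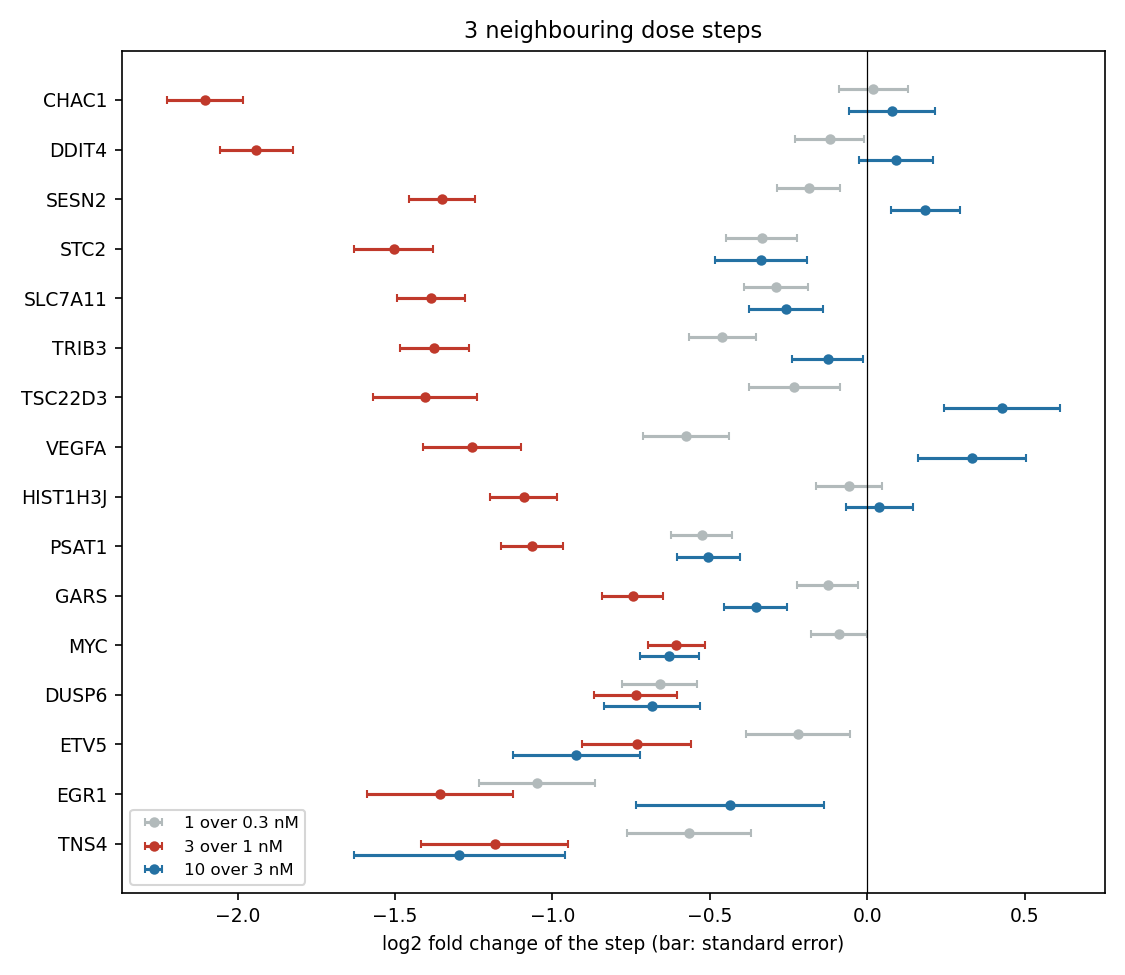
Log2 fold change of 3 neighbouring dose steps with standard errors, 1 over 0.3 nM (grey), 3 over 1 nM (red) and 10 over 3 nM (blue), for 16 genes that were lower at 3 nM. CHAC1, DDIT4 and SESN2 change by over 1 in the middle step and lie within 0.20 of 0 in the others, whereas the 3 values of DUSP6 lie between -0.74 and -0.66.

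Relative to the mean of both DMSO groups, the log2 level of CHAC1 was -0.00069 at 1 nM, -2.10 at 3 nM and -2.29 at 1000 nM. DDIT4 was at -0.29, -2.23 and -2.13 at the same 3 doses. Both genes were about as low at 3 nM as at the highest dose. DUSP6, the ERK phosphatase and feedback inhibitor, was at -0.83 at 1 nM, -1.56 at 3 nM and -5.06 at 1000 nM, so most of its fall lay above 3 nM. ETV5, an ETS factor that ERK switches on, was at -0.35, -1.09 and -4.13. PSAT1 and GARS took an intermediate course: PSAT1 was at -0.57, -1.63 and -2.79, and GARS at -0.20, -0.95 and -1.87. The values of 1 gene at different doses share the DMSO libraries.

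**Figure D4:**
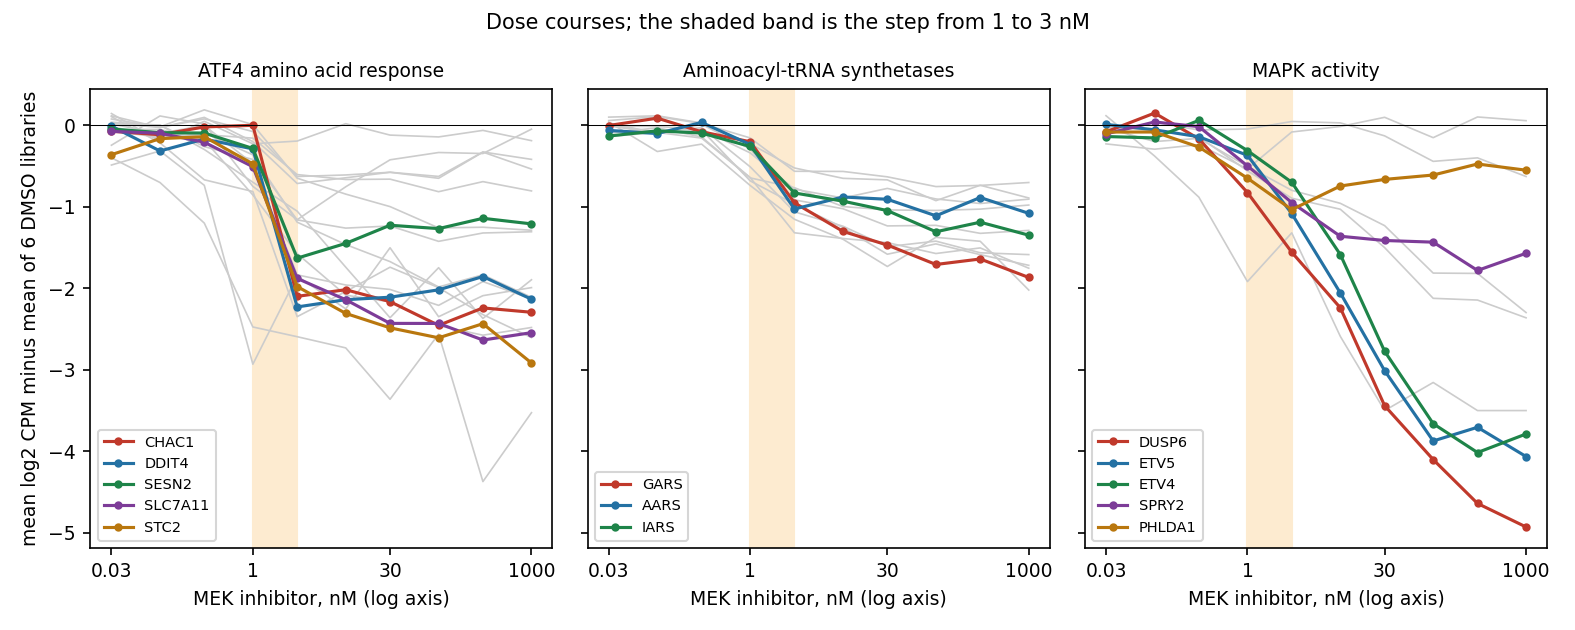
Mean log2 CPM minus the mean of the 6 DMSO libraries (vertical axis) at 10 doses (log axis) for all tested members of 3 gene lists, with selected genes in colour and the rest in grey. CHAC1 and DDIT4 drop within the shaded step from 1 to 3 nM and level off, whereas DUSP6, ETV4 and ETV5 go on falling at higher doses.

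Some transcripts that report ERK activity fell. Of 10 tested members of the MAPK activity list, a set of ERK-driven feedback genes, receptors and factors, 4 were called lower and 0 higher, with a median log2 fold change of -0.36. DUSP6 had 20.3, 24.9 and 20 CPM at 3 nM, against 35.2, 37.5 and 35.6 CPM at 1 nM, and the groups did not overlap. Its log2 fold change was -0.74 ± 0.13 (edgeR's quasi-likelihood test, adjusted p = 1.87e-04). It was called under all 14 alternatives. ETV5 had 34.8, 31 and 35 CPM at 3 nM, against 75.8, 49.3 and 45.1 CPM at 1 nM, and changed by -0.73. SPRY2, a Sprouty inhibitor of receptor signalling, had 28.3, 30.4 and 30.3 CPM at 3 nM, against 38.6, 39.5 and 43.7 CPM at 1 nM, and changed by -0.46. PHLDA1, a pleckstrin-homology-like protein induced by growth factors, changed by -0.39 on the log2 scale. The groups of these 3 genes did not overlap, but their calls rested on single libraries: ETV5 was lost without 1 nM replicate 1 or without 3 nM replicate 2, PHLDA1 without 3 nM replicate 1, and SPRY2 without any library but 1 nM replicate 2.

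The other 6 members did not pass the test. DUSP4, a nuclear ERK phosphatase, had 65, 63.6 and 66.3 CPM at 3 nM, against 77.6, 77.5 and 91.9 CPM at 1 nM (log2 fold change -0.34). ETV4, an ETS factor, had 40.5, 38.9 and 39.2 CPM at 3 nM, against 52.8, 61.8 and 42.7 CPM at 1 nM (-0.41), and EPHA2, an ephrin receptor, had 242, 259 and 275 CPM at 3 nM, against 316, 307 and 326 CPM at 1 nM (-0.29). In these 3 genes every 3 nM library was below every 1 nM library. CCND1, cyclin D1, had 301, 272 and 308 CPM at 3 nM, against 248, 302 and 277 CPM at 1 nM, and overlapped, with a log2 fold change of 0.087 ± 0.10. EPHA4 (0.49 ± 0.35) and SPRY4 (0.13 ± 0.66) were low, below 7 CPM in all 6 libraries, and also overlapped. The sign of SPRY4 turned negative in 4 alternatives, the lowest at -0.29.

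Growth factors and early response genes downstream of ERK were among the larger falls. HBEGF, a membrane-bound ligand of the EGF receptor, had 11.8, 6.6 and 15.1 CPM at 3 nM, against 37.9, 37.1 and 30.6 CPM at 1 nM, without overlap and with a log2 fold change of -1.64 ± 0.19. AREG, amphiregulin, another EGF receptor ligand, had 34.8, 31 and 40.7 CPM at 3 nM, against 64.1, 55.8 and 67.5 CPM at 1 nM, without overlap and with a log2 fold change of -0.81 ± 0.15. Of 5 tested EGFR ligands these 2 were called lower and 0 higher, and the median was -0.74; EREG (-0.74), BTC (0.44) and TGFA (0.14) did not pass. EGR1, an early growth response factor, had 6.12, 3.96 and 4.69 CPM at 3 nM, against 7.24, 14.1 and 15.5 CPM at 1 nM. MYC, the growth-promoting transcription factor, had 244, 252 and 256 CPM at 3 nM, against 368, 368 and 409 CPM at 1 nM. Neither overlapped, and replicate 1 at 1 nM was the lowest 1 nM library for EGR1. By edgeR's quasi-likelihood test the adjusted p was 2.31e-08 for HBEGF, 6.65e-04 for AREG, 8.96e-05 for EGR1 and 7.48e-06 for MYC, and these 4 genes were called under all 14 alternatives.

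Of 8 immediate early genes, 3 were called lower and 0 higher, with a median of -0.26: EGR1 (-1.36), MYC (-0.61) and ATF3 (-0.48), a stress-induced repressor whose call was lost without 1 nM replicate 1 or 3 nM replicate 1. Among 10 other ERK-responsive genes, 1 was called lower and 0 higher, with a median of -0.11. This was IER3, a survival factor, which had 53.6, 47.1 and 58 CPM at 3 nM, against 88.6, 82.7 and 66.8 CPM at 1 nM, and whose call was lost without 1 nM replicate 1 or 3 nM replicate 2. CXCR4, the receptor of the chemokine CXCL12, had 4.64, 4.62 and 4.69 CPM at 3 nM, against 5.86, 14.5 and 13.8 CPM at 1 nM, and a log2 fold change of -1.34 ± 0.25. TNS4, a tensin of focal adhesions, had 5.49, 3.74 and 4.26 CPM at 3 nM, against 9.31, 12.4 and 8.83 CPM at 1 nM (-1.18 ± 0.23), the only called member of 16 adhesion and migration genes. Both were lower in every 3 nM library, with replicate 1 at 1 nM the lowest 1 nM library for CXCR4, and both were called under all 14 alternatives. The call of LOC400655, an uncharacterised locus, was lost without 1 nM replicate 1 or 3 nM replicate 2. It had 3.8, 0.44 and 2.56 CPM at 3 nM, against 8.27, 5.64 and 5.01 CPM at 1 nM, and was not lower at 10 nM than at 0.3 nM (log2 fold change 0.42).

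The transcripts of MAP2K1, MAP2K2, BRAF and MAPK3, kinases of the pathway, did not pass the test. MAP2K1 had 97.1, 91.5 and 85 CPM at 3 nM, against 109, 106 and 105 CPM at 1 nM (log2 fold change -0.23 ± 0.092), and the groups did not overlap. MAP2K2 (0.035 ± 0.10) and BRAF (-0.06 ± 0.11) overlapped between doses, and MAPK3, which encodes ERK1, had a log2 fold change of 0.27 ± 0.10. Among 10 receptor kinases and adaptors 0 were called by edgeR, DESeq2 or voom and 2 had an unadjusted p below 0.05, with a median of -0.11 and the smallest p for ERBB2 (log2 fold change 0.30).

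Many histone genes fell. Of 56 tested histone genes, taken from the gene names after the values had been seen, 30 were called lower and 1 higher, with a median log2 fold change of -0.51. Together they summed to 16877, 16054 and 16494 CPM at 3 nM, against 24376, 22615 and 23739 CPM at 1 nM, so the doses did not overlap. HIST1H3J, a core histone H3 gene, had 517, 513 and 550.5 CPM at 3 nM, against 1260.0, 1068 and 1042 CPM at 1 nM, with a log2 fold change of -1.09 ± 0.11. HIST1H3G changed by -1.02 ± 0.11, HIST1H2BM by -0.91 ± 0.12 and HIST3H2A by -0.89 ± 0.12, all with every 3 nM library below every 1 nM library. By edgeR's quasi-likelihood test the adjusted p was 1.05e-10 for HIST1H3J, 1.08e-08 for HIST1H3G, 5.56e-07 for HIST1H2BM and 5.94e-07 for HIST3H2A. HIST1H3J differed from the step above under all 16 alternatives, and from the step below under 15 of 16, the exception being without 1 nM replicate 1. The 1 higher gene was HIST1H2BK, with 26.4, 26.8 and 26 CPM at 3 nM, against 12.1, 17.6 and 16 CPM at 1 nM, a gene known to give polyadenylated transcripts. Histone genes are near-identical to each other, and amplicons that cannot tell them apart would share counts. The number called lower ran from 20 to 34 over the alternatives, and 18 genes were lower in all of them.

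Few other genes of the cell cycle were called. The shares over all tested genes were 1.71% higher and 2.87% lower, so single calls are not read as a change of these lists. Of 31 genes of DNA replication (G1/S), 1 was lower and 0 higher, with a median of -0.13. It was RFC4, a clamp loader subunit, at 49, 47.3 and 55.8 CPM at 3 nM, against 62.1, 67.3 and 78.5 CPM at 1 nM, whose call was lost without 1 nM replicate 3, 3 nM replicate 1 or 3 nM replicate 2. Of 30 mitotic (G2/M) genes 0 were called by edgeR, DESeq2 or voom and 8 had an unadjusted p below 0.05, with a median of -0.083, and the smallest p belonged to UBE2C (log2 fold change 0.25). Among 14 G1 cyclins and CDK inhibitors, 1 was higher and 0 lower, with a median of 0.078. CDKN2B, the CDK4 inhibitor p15, had 57.4, 60 and 51.4 CPM at 3 nM, against 39.6, 31.2 and 45.1 CPM at 1 nM, a log2 fold change of 0.55 ± 0.13, and its call was lost without 1 nM replicate 2. It was also higher at 10 nM than at 0.3 nM (1.12).

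Of 31 tested ribosome biogenesis genes, 28 had a log2 fold change below 0, the median was -0.27, and 4 were called lower and 0 higher. RRP12, an assembly factor of ribosomal subunits, had 55.1, 55.2 and 65.4 CPM at 3 nM, against 89.6, 79.4 and 81.8 CPM at 1 nM (-0.51 ± 0.11). NOLC1, DDX21 and MRTO4, nucleolar factors, changed by -0.36, -0.39 and -0.38, and each lost its call when any of 4 of the 6 libraries was left out, NOLC1 without 1 nM replicates 2 and 3 and 3 nM replicates 2 and 3, DDX21 without 1 nM replicates 1 and 3 and 3 nM replicates 1 and 2, and MRTO4 without 1 nM replicates 2 and 3 and 3 nM replicates 1 and 3. With the 6 libraries fitted alone 0 members were called lower by edgeR, against 5 with DESeq2 or voom on all libraries, and without the 3 most deviating libraries of the series 9 were. Over the wider interval, 10 nM against 0.3 nM, 28 of the 31 were called lower, with a median of -0.76. Of 24 ribosomal protein genes, 2 were higher and 0 lower, with a median of -0.014. RPL19 had 3001, 2855 and 2757 CPM at 3 nM, against 1766, 2596 and 2343 CPM at 1 nM, and RPL5 changed by 0.33 on the log2 scale. Both calls were lost without 1 nM replicate 1, the lowest library for each, or 3 nM replicate 1, that of RPL5 also without 3 nM replicate 2, and pseudogene copies of ribosomal protein genes may share counts. Of 15 nucleotide synthesis genes, 3 were lower and 0 higher, with a median of -0.25. These were DHODH (-0.65), IMPDH2 (-0.36) and PFAS (-0.38), enzymes of pyrimidine, guanine nucleotide and purine synthesis, and their calls were lost without 1 nM replicate 1 or any 3 nM library, those of IMPDH2 and PFAS also without 1 nM replicate 2 and that of PFAS without 1 nM replicate 3. Among 6 polyamine genes 0 were called by edgeR or voom and 1 by DESeq2, and 2 had an unadjusted p below 0.05, with a median of -0.095 and the smallest p for SRM, spermidine synthase (-0.34).

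**Figure D5:**
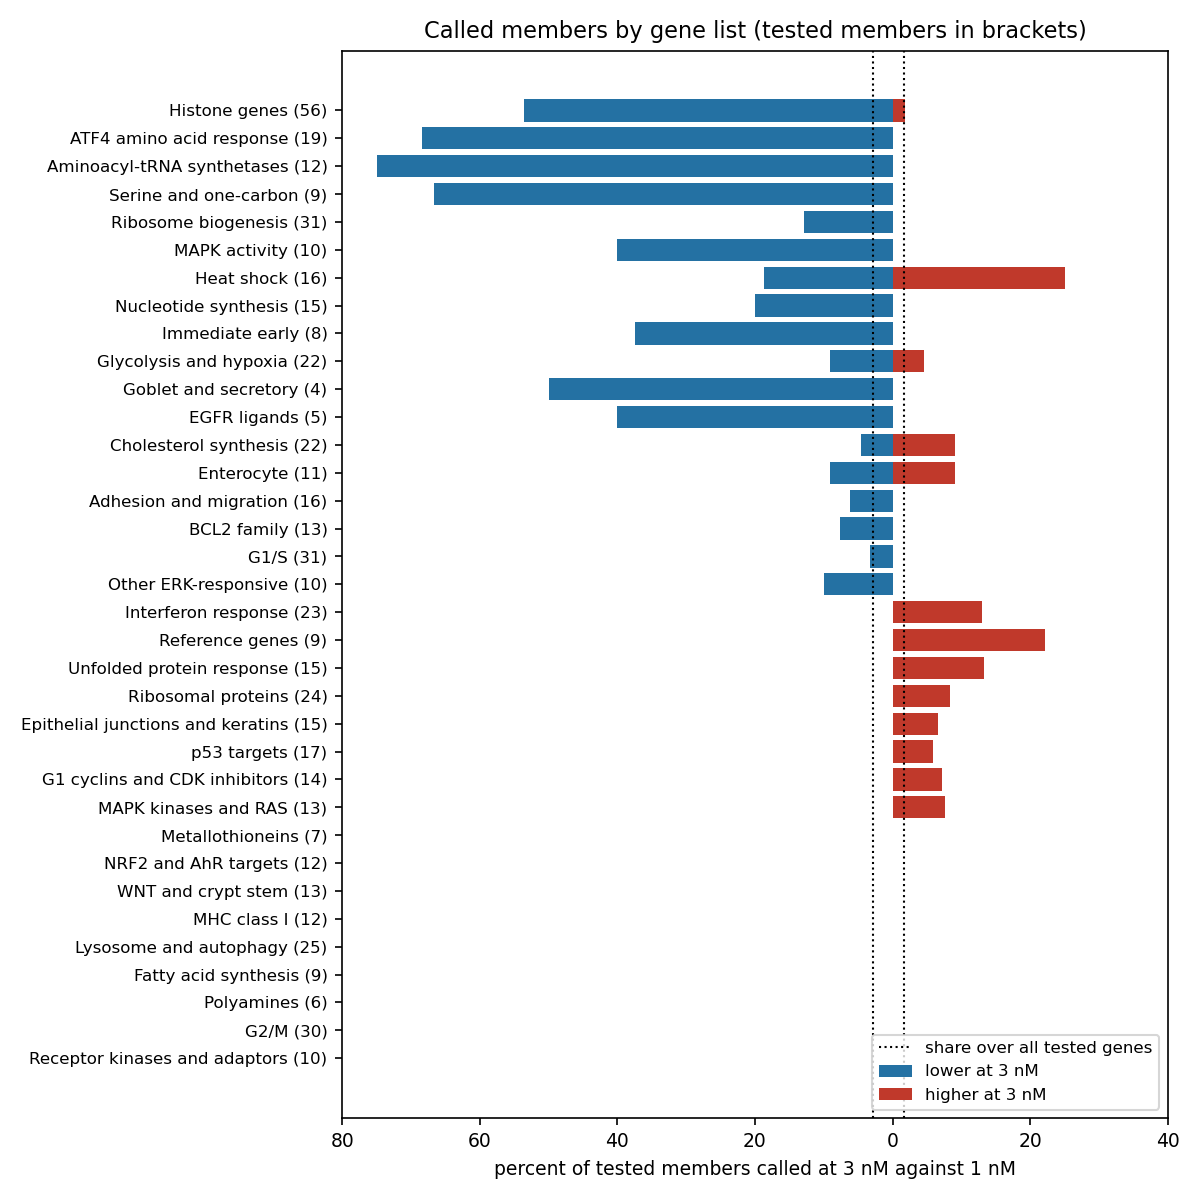
Percent of the tested members of each gene list (number in brackets) called lower (blue, left) or higher (red, right) at 3 nM against 1 nM; dotted lines mark 2.87% lower and 1.71% higher over all tested genes. The longest bars belong to synthetases (9 of 12), ATF4 genes (13 of 19), serine and one-carbon enzymes (6 of 9) and histones (30 of 56), all on the lower side.

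Chaperone genes moved in both directions, with 4 of 16 heat shock genes higher, 3 lower and a median of 0.13. HSPA1B, the inducible HSP70, had 90.7, 56.5 and 66.5 CPM at 3 nM, against 48.3, 38.4 and 38.9 CPM at 1 nM, a log2 fold change of 0.78 ± 0.15; its near-identical partner HSPA1A may share its counts. DNAJB1, an HSP40 co-chaperone, had 52.8, 57.2 and 51.6 CPM at 3 nM, against 27.2, 33.6 and 38.2 CPM at 1 nM, a log2 fold change of 0.69 ± 0.15. Every 3 nM library was above every 1 nM library for both genes, and both were called under all 14 alternatives (edgeR's quasi-likelihood test, adjusted p = 5.13e-04 for HSPA1B and 0.00342 for DNAJB1). HSPA8 (0.34) and DNAJA1 (0.33) were also higher, whereas the mitochondrial chaperonin HSPD1 (-0.39), HSP90AB1 (-0.35) and the chaperonin subunit CCT5 (-0.32) were lower. Those 5 calls rested on single libraries: HSPD1 was lost without 1 nM replicate 1 or 3 nM replicate 2, HSP90AB1 and CCT5 without 1 nM replicate 1 or any 3 nM library, HSPA8 without any library but 1 nM replicate 2, and DNAJA1 without any library but 1 nM replicate 1. Of 15 unfolded protein response genes 2 were higher and 0 lower, with a median of 0.078. PDIA4, a disulfide isomerase, had 45.2, 44 and 37.3 CPM at 3 nM, against 19.3, 22.6 and 27.2 CPM at 1 nM (0.86 ± 0.18), and the calcium-binding chaperone CALR changed by 0.55, a call lost without 1 nM replicate 1 or 3 nM replicate 1.

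Of 23 interferon response genes, 3 were higher and 0 lower, with a median of 0.24. STAT2, a transducer of type I interferon signals, had 42.6, 56.5 and 49.9 CPM at 3 nM, against 26.9, 34.5 and 22.4 CPM at 1 nM, without overlap. Its log2 fold change was 0.82 ± 0.14 (edgeR's quasi-likelihood test, adjusted p = 9.11e-05). STAT2 was called under all 14 alternatives. It was lower at 1 nM than at 0.3 nM (-0.52), and relative to DMSO it was at -0.38 at 1 nM and 0.44 at 3 nM. At 10 nM against 0.3 nM its log2 fold change was 0.44. OAS2, an antiviral synthetase, was low, at 3.38, 6.38 and 3.41 CPM at 3 nM, against 0.345, 1.3 and 0.716 CPM at 1 nM, and its call was lost without 1 nM replicate 1, 1 nM replicate 3 or 3 nM replicate 2. IFIT2 changed by 0.54 with an adjusted p of 0.0496 by edgeR's quasi-likelihood test, and its call was lost under 8 of 14 alternatives, including those without 1 nM replicate 1, 1 nM replicate 2, 3 nM replicate 2 or 3 nM replicate 3. Members such as ISG15 (0.24), IFI27 (0.49) and MX1 (-0.11) did not pass. At 10 nM against 0.3 nM, 17 of the 23 genes were called higher and 0 lower, with a median of 0.72.

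Fewer cholesterol synthesis genes were called at this step than at the step from 0.3 to 1 nM. Of 22 tested cholesterol synthesis genes 2 were higher and 1 lower at 3 nM than at 1 nM, with a median of 0.063, while 8 were higher and 0 lower at 1 nM than at 0.3 nM, with a median of 0.46. Over all genes, 162 (1.34%) were higher and 146 (1.21%) lower in that step. INSIG1, which holds back the sterol regulator SREBP, had 149, 140.5 and 147 CPM at 3 nM, against 85.8, 93.1 and 101 CPM at 1 nM, without overlap and with a log2 fold change of 0.64 ± 0.12 (edgeR's quasi-likelihood test, adjusted p = 3.00e-04). It was called under all 14 alternatives. NSDHL, a late enzyme of the pathway, changed by 0.66, a call lost without 1 nM replicate 1, 1 nM replicate 3 or 3 nM replicate 2. Of 9 fatty acid synthesis genes 0 were called by edgeR or DESeq2 and 1 by voom, and 5 had an unadjusted p below 0.05, with a median of 0.21 and the smallest p for FADS2, a desaturase (0.56).

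Some markers of gut epithelial types changed, in short lists. Over all tested genes 1.71% were called higher and 2.87% lower. MUC2, the main mucin of goblet cells, had 59.7, 61.6 and 64.8 CPM at 3 nM, against 105, 112 and 102 CPM at 1 nM, without overlap and with a log2 fold change of -0.78 ± 0.10 (edgeR's quasi-likelihood test, adjusted p = 3.18e-07). REG4, a secreted lectin, had 968, 929 and 858 CPM at 3 nM, against 892, 1395 and 1335 CPM at 1 nM; replicate 1 at 1 nM overlapped the 3 nM libraries, and the call was lost without any of 1 nM replicates 2 and 3 and 3 nM replicates 2 and 3. These were the 2 lower of 4 tested goblet and secretory genes, with 0 higher and a median of -0.11. Of 11 enterocyte genes 1 was higher and 1 lower, with a median of 0.13: VIL1, the microvillus protein villin, had 109.5, 109 and 115 CPM at 3 nM, against 84.1, 89.4 and 80.2 CPM at 1 nM, and CEACAM6, an adhesion protein, changed by -0.51. The call of VIL1 was lost without 1 nM replicate 3 or 3 nM replicate 3, and that of CEACAM6 without 1 nM replicate 2, 3 nM replicate 1 or 3 nM replicate 2. In bulk samples fewer cells of a type and less RNA per cell cannot be told apart. LYZ, lysozyme, was called higher (0.86 ± 0.19) with replicate 1 at 1 nM its lowest library, and that call was lost without it. Of 15 junction and keratin genes 1 was higher and 0 lower, with a median of -0.018. It was KRT14 (1.13), whose call was lost without 1 nM replicate 3 or 3 nM replicate 1. Of 16 adhesion genes 0 were higher and 1 lower, with a median of 0.011, and of 13 WNT and crypt stem genes 0 were called by edgeR, DESeq2 or voom and 1 had an unadjusted p below 0.05, with a median of -0.13 and the smallest p for CD44 (-0.71).

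Against 1.71% called higher and 2.87% lower over all tested genes, the next 3 lists held few calls, which are not read as changes of the lists. Among 13 BCL2 family genes 0 were higher and 1 lower, with a median of 0.22. This was PMAIP1, which encodes the death activator NOXA, with 34, 33 and 33.7 CPM at 3 nM, against 56.2, 56 and 67.1 CPM at 1 nM, without overlap and with a log2 fold change of -0.83 ± 0.12 (edgeR's quasi-likelihood test, adjusted p = 6.39e-06). Of 17 p53 targets 1 was higher and 0 lower, with a median of 0.075. ZMAT3, an RNA-binding p53 target, had 36.5, 42.9 and 40.1 CPM at 3 nM, against 17.9, 25.2 and 31 CPM at 1 nM, without overlap (0.66 ± 0.14). In the glycolysis and hypoxia list of 22 genes, 1 was higher and 2 lower, with a median of 0.052. HK2, hexokinase 2, had 45.4, 51.2 and 52.2 CPM at 3 nM, against 74.5, 74.2 and 80.4 CPM at 1 nM, without overlap (-0.62 ± 0.11), VEGFA was the other lower gene, and NDRG1, a growth-arrest gene, was higher (0.39) with a call lost without 1 nM replicate 2, 1 nM replicate 3, 3 nM replicate 1 or 3 nM replicate 3.

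In 4 further lists 0 members were called by edgeR's quasi-likelihood test, DESeq2 or voom. These were 25 lysosome and autophagy genes (median 0.0018, smallest p for NPC2 at 0.33), 12 MHC class I genes (median 0.11, HLA-F at 1.10), 12 NRF2 and AhR targets (median 0.024, AHRR at 0.70) and 7 metallothioneins, with unadjusted p below 0.05 for 4, 0, 3 and 3 members in that order. The metallothioneins had a median of 0.70 at this step and -0.72 at 10 nM against 3 nM, and MT1E, the one with the smallest p, had 312, 279 and 175 CPM at 3 nM, against 163, 112 and 126 CPM at 1 nM (0.95 ± 0.38). Its 3 nM libraries were all higher but spread widely, and members of the family are near-identical in sequence. Of 9 genes often used as stable references 2 were higher and 0 lower, with a median of 0.17: TFRC, the transferrin receptor (0.48), and YWHAZ, a 14-3-3 protein (0.74). The call of YWHAZ was lost without 1 nM replicate 2, 3 nM replicate 1 or 3 nM replicate 3. ACTB had 4863, 4283 and 4279 CPM at 3 nM, against 5125, 4224 and 4028 CPM at 1 nM, and GAPDH had 6422, 6429 and 5795 CPM at 3 nM, against 9324, 6568 and 6086 CPM at 1 nM, and both overlapped.

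Called genes that averaged 5 CPM or more at 3 nM and did not overlap between doses were ranked by their rise. The 12 largest rises among them were genes of low expression, between 1.11 and 1.58 on the log2 scale. Larger called rises, up to 3.56, lay outside these limits, OAS2 among them at 2.32. HSD3B7, an enzyme of bile acid synthesis, had 5.7, 6.6 and 7.67 CPM at 3 nM, against 1.72, 1.95 and 3.1 CPM at 1 nM, a log2 fold change of 1.52 ± 0.35. DEGS2, a sphingolipid desaturase, had 11, 10.8 and 11.7 CPM at 3 nM, against 5.17, 5.21 and 3.58 CPM at 1 nM (1.27 ± 0.28). SPINK7, a serine protease inhibitor, had 6.33, 5.94 and 4.69 CPM at 3 nM, against 2.07, 2.17 and 1.67 CPM at 1 nM (1.51 ± 0.37). These genes did not overlap between doses, and all 3 were higher at 10 nM than at 0.3 nM, with log2 fold changes there of 1.50, 1.02 and 1.43. NYNRIN (1.17 at the step, 1.47 in the wider interval), LOC154761 (1.26, 2.38) and KRT14 (1.13, 2.44) were also called higher in both.

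The remaining 6 rises were not called at 10 nM against 0.3 nM. PTPN21, a tyrosine phosphatase, had 6.54, 6.16 and 5.97 CPM at 3 nM, against 2.07, 1.74 and 2.39 CPM at 1 nM, and the DMSO libraries ran from 6.45 to 10.6 CPM with a median of 7.97 CPM. Its 1 nM libraries were thus below the DMSO libraries, and its 3 nM libraries were near the lowest of them. BCL9, a WNT co-activator, had 6.54, 8.58 and 4.69 CPM at 3 nM, against 3.45, 1.95 and 1.91 CPM at 1 nM, and DMSO libraries from 3.53 to 7.37 CPM with a median of 4.09 CPM. KCNK6, a potassium channel, had 5.91, 9.46 and 7.67 CPM at 3 nM, against 3.1, 3.47 and 2.39 CPM at 1 nM, and DMSO libraries from 4.09 to 7.22 CPM with a median of 6.41 CPM. The log2 fold changes at 10 nM over 0.3 nM were -0.70 for PTPN21, -0.35 for BCL9, -0.22 for KCNK6, -0.11 for ZCCHC2, 0.24 for CBLN1 and 0.58 for CD99P1. Without 1 nM replicate 1 the calls of KCNK6, CBLN1, CD99P1 and ZCCHC2 at the step were lost, and so was that of BCL9 without 1 nM replicates 2 or 3 or 3 nM replicates 1 or 2, while PTPN21 was called under all 14 alternatives. KCNK6 was also lost without 1 nM replicate 3, 3 nM replicate 2 or 3 nM replicate 3, CBLN1 without 1 nM replicate 2, 3 nM replicate 2 or 3 nM replicate 3, CD99P1 without 3 nM replicate 1 or 2, and ZCCHC2 without any library but 3 nM replicate 3.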

How the data were processed

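Libraries were Ion AmpliSeq amplicons made from 10 ng of RNA and pooled by 18, per the labels' protocols. The authors deposited whole-number counts per gene without normalization; their build is hg19, per the submitters' processing notes, whereas aligner and counter were not given in the sources used here. Nor is strand use, so overlapping and antisense genes cannot be told apart. Amplicons amplify unequally, so counts of different genes, and sums over gene sets, do not give their relative amounts. Counts carry no molecular identifiers.

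Groups follow the titles. Genes were kept by filterByExpr in edgeR 4.0.16 (R 4.3.3), leaving 12102. After TMM scaling, a robust quasi-likelihood model of 12 groups was fitted to 36 libraries (24 residual degrees of freedom), and p-values were adjusted over the 12102 genes (Benjamini-Hochberg). CPM use TMM library sizes. Totals ran from 2972186 to 4751839 counts, with a median of 3952427. The 36 single files equal the matrix, and 10 spike-in rows held 0 counts. In simulated data for the step 12055 genes were tested. Of 50 genes each, 28%, 86%, 98% and 100% were recovered at log2 changes of 0.5, 1, 2 and 3. There were 9 calls among unchanged genes. The simulation used 1 spread per gene for all libraries, so it held no library that deviates as 1 nM replicate 1 does.

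Genes named were the 12 largest rises and falls (adjusted p below 0.05, at least 5 CPM in the higher dose, no overlap), all MAPK activity members, up to 4 called members of each other list (the smallest p where none), the core kinases, ACTB and GAPDH, and the 5 strongest differences between steps per direction. Other members named were chosen after their values were seen. The members and lists were chosen with earlier results of these data known. Alternatives were DESeq2 size factors, no filter, at least 1 CPM in 3 libraries, DESeq2 1.42.0, limma 3.58.1 voom, only the compared libraries, a replicate block and each library left out, plus, chosen after seeing the data, the 3 most deviating libraries left out. Some genes and sequences are not reported here.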

Additional observations from a re-analysis of the deposited data

Results flagged for a closer look

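Each gene here had a step from 1 to 3 nM that differed from a neighbouring step in edgeR's quasi-likelihood test of that difference, adjusted over all tested genes. The values are differences between log2 fold changes, and both steps share libraries. Against the step from 0.3 to 1 nM, the difference was -2.12 for CHAC1, -1.82 for DDIT4, -1.17 for SESN2, -1.10 for SLC7A11 and -1.03 for HIST1H3J, and it was positive for CLN8 (1.84), FLYWCH2 (1.67), HGS (1.35), STAT2 (1.34) and NCOA1 (1.33). CHAC1, DDIT4, SESN2 and SLC7A11 were called under all 16 alternatives, and the 5 positive genes and HIST1H3J were not called without 1 nM replicate 1.

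Against the step from 3 to 10 nM, the difference was -2.18 for CHAC1, -2.03 for DDIT4, -1.54 for SESN2, -1.25 for TRIB3 and -1.13 for HIST1H3J, all called under the 16 alternatives. It was positive for PDIA4 (1.56), DNAJB1 (1.27), LIPG (1.08), SIVA1 (0.97) and TUBA1B (0.92), none of which was called without 3 nM replicate 1. For LIPG, an endothelial lipase, the step from 1 to 3 nM was 0.17 and the step from 3 to 10 nM -0.91.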

How the results depend on the processing

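Of the 110 named genes tested, 87 were called, and 44 of these kept their call and sign under all 14 alternatives. The count of 554 genes was 153 (56 higher, 97 lower) with the 6 libraries alone, 778 (405 higher, 373 lower) without a filter on low counts, 519 without the 3 most deviating libraries, and from 266 to 691 with 1 library left out. Without 1 nM replicate 1, 236 of the 279 genes were shared with the 554. The count of 3118 at 10 nM against 0.3 nM stayed within 1.5 times. Differences from the lower step numbered 27, but 71 with DESeq2, 280 without a filter and 4 to 138 with 1 library left out. Differences from the upper step numbered 32, but 75 with DESeq2, 304 without a filter, 75 with the compared libraries alone and 11 to 50 with 1 library left out. The causes were not tested. Replicate numbers did not pair samples (correlations of deviations 0.028, -0.049 and 0.052); with a replicate block the counts were 522, 3077, 29 and 32. Log2 fold changes near 0 turned sign. With 1 library left out, ACTB ran from -0.063 to 0.12, BRAF from -0.13 to 0.032, MAP2K2 from -0.018 to 0.075 and SPRY4 from -0.28 to 1.17. ACTB was -0.0034 with the filter of 1 CPM, and SPRY4 was -0.29 without the 3 most deviating libraries. At 2972186 to 4751839 counts per library, small changes of genes with few counts were not detectable.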
